A study of Mus musculus with 12 samples.

Results

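The genes that make cholesterol and fatty acids, with those that sense and move sterols, were a list of 38 named genes. Members were taken as the probe sets whose only gene symbol in the platform annotation was on the list, and the probe set with the highest mean over 12 arrays stood for its gene. Of the 38 genes, 36 had such a probe set (Acat2 and Nr1h2 had none) and 35 passed the filter on low signal, out of 12323 genes that passed it in all. Nr1h3, an oxysterol receptor, lay between 4.96 and 5.38 on the log2 scale in the 12 arrays and was not tested. The 35 tested genes were 17 enzymes of sterol synthesis, 5 genes of sterol sensing, 5 of sterol transport and removal, and 8 of fatty acid synthesis and desaturation.

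RNA came from prefrontal cortex, with adjacent motor cortex per the study, of adult male mice obtained at 12 weeks of age. It was hybridised to Affymetrix whole-genome mouse arrays. All mice were first accustomed to saline injections and then received saline or 3 g/kg ethanol into the peritoneum, and tissue was taken 4 hours later. Control mice were of the stock B6129SF2/J and Fyn-null mice of the stock B6;129S7-Fyntm1Sor/J, which carries a targeted disruption of the gene for the tyrosine kinase Fyn, so genotype and stock cannot be told apart. Each genotype had 3 arrays after saline and 3 after ethanol, which gives 4 groups, and an array held RNA pooled from 3 mice. The labels and the study's methods do not give the same number of mice, so whether every pool held separate animals is known only from the labels, and p-values measure the spread between pools.

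The adult brain makes its own cholesterol, because cholesterol in lipoproteins of the blood hardly crosses the blood-brain barrier. Synthesis runs from acetyl-CoA through mevalonate and isoprenoids to squalene, which is closed into a ring and trimmed to cholesterol. When membranes of the endoplasmic reticulum hold little sterol, Scap carries the precursor of the transcription factor SREBP-2 (gene Srebf2) to the Golgi, where it is cleaved and then drives the enzyme genes together, whereas the Insig proteins hold it back when sterol is plentiful. SREBP-1 (gene Srebf1) acts in the same way, mostly on genes of fatty acid synthesis. In brain, astrocytes supply cholesterol to neurons on apolipoprotein E, and oligodendrocytes need large amounts for myelin.

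Values are log2 signals made with RMA, which corrects, normalizes and summarises the probes of a probe set. Levels of different genes are not compared, because probes differ in brightness. Array medians lay between 5.40 and 5.48 and correlations between arrays between 0.982 and 0.997. The mean signal over 10 neuron markers was 10.8 to 11.1 in all pools, with no other tissue set beside it. The probe set of Fyn with the higher mean read 9.33 to 9.70 in the control ethanol pools and 8.75 to 9.01 in the Fyn-null ethanol pools. In the saline groups the pool labelled control saline replicate 2 read 8.74, among the Fyn-null values. Replicate 4 of the pools labelled Fyn-null saline read 9.45, among the control values. The sources used here do not say whether this probe set covers the disrupted part. The second probe set of Fyn overlapped between the ethanol groups, at 7.80 to 7.95 in control and 7.62 to 7.81 in Fyn-null pools. After saline, in order of replicate, it read 7.65, 7.53 and 7.91 in control and 7.61, 7.50 and 7.75 in Fyn-null pools. Both pools named above were again the lowest control and the highest Fyn-null saline pool. Since its groups overlap, the doubt about them rests mainly on the brighter probe set. The labels were kept, and the main values over the enzymes and the called members that use the saline pools are given with and without both of these pools.

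After ethanol, 16 of the 17 sterol synthesis enzymes had a higher mean signal in Fyn-null than in control pools, and in all 16 the 3 Fyn-null pools lay above the 3 control pools. Among all genes tested, 16.0% had groups that did not overlap in this direction. The median difference over the 17 enzymes was 0.36 on the log2 scale, beside 0.044 over all genes. An unadjusted p under 0.05 with Fyn-null higher was found for 15 of the 17 enzymes and for 10.1% of all genes. None was called (adjusted p under 0.05, limma with Benjamini-Hochberg adjustment over all probe sets), and 0% of all genes were called. In bulk tissue, fewer cells of a type and less RNA per cell cannot be told apart.

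**Figure D1:**
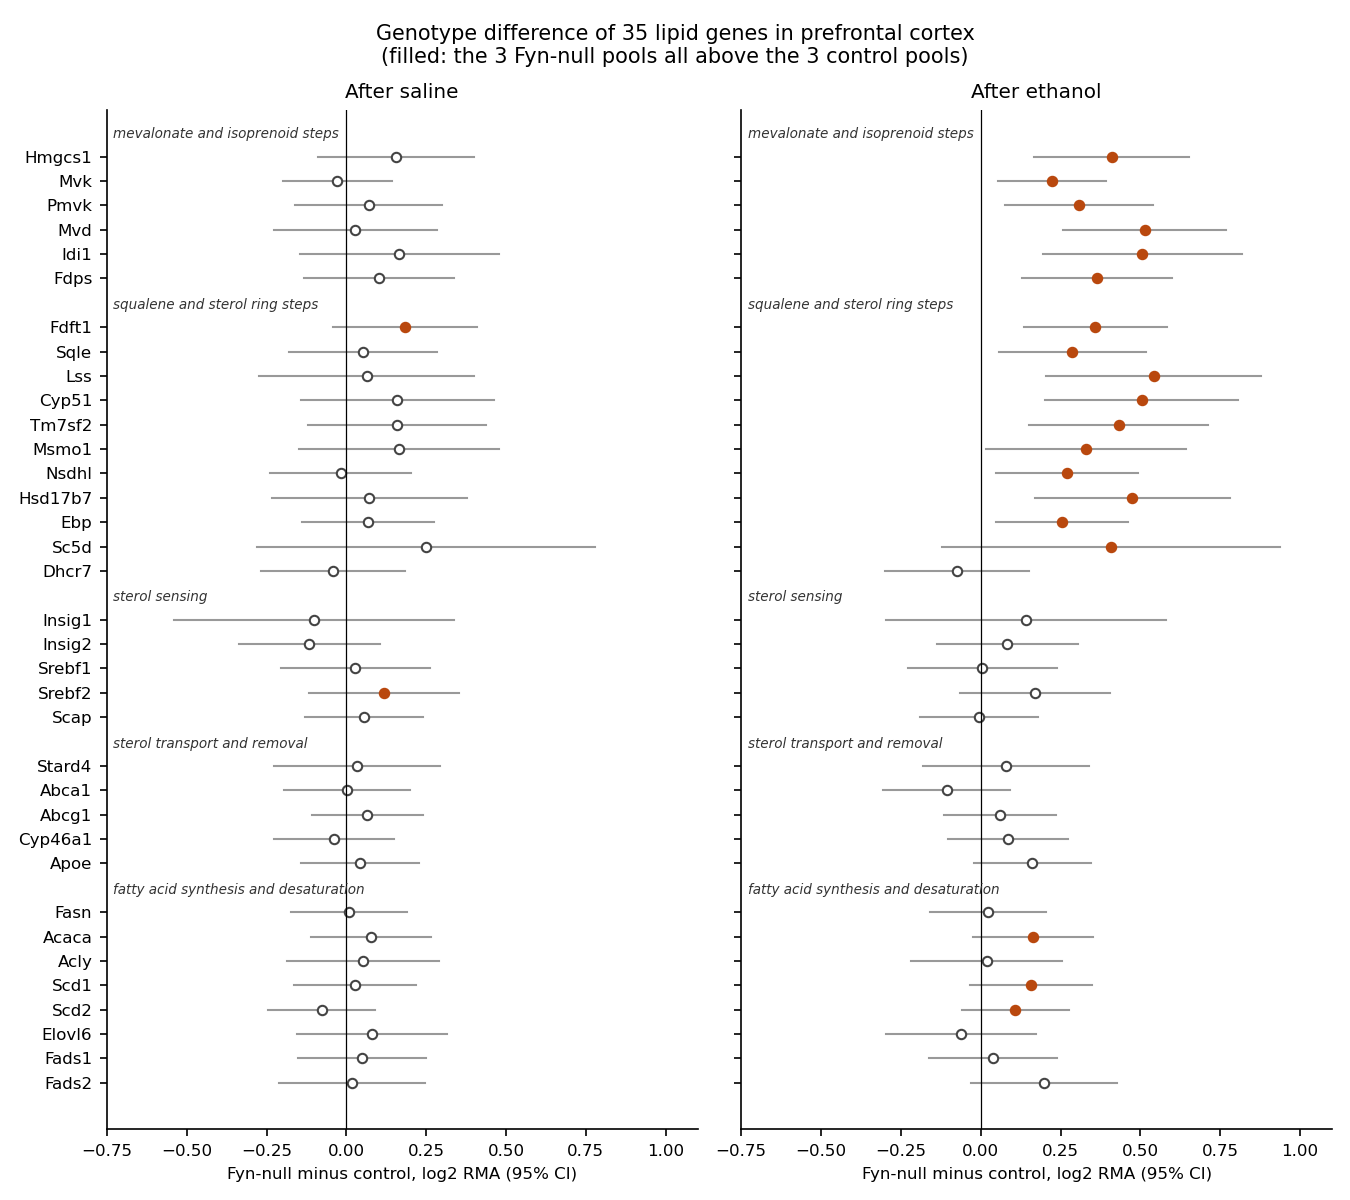
Difference between Fyn-null and control pools (log2 RMA signal, x axis) for each of the 35 tested genes (y axis, grouped by role), after saline on the left and after ethanol on the right. Circles are group differences of 3 against 3 pools, lines are 95% confidence intervals from limma, and filled circles mark genes whose Fyn-null pools all lay above the control pools; this holds for 19 genes after ethanol, 16 of them sterol synthesis enzymes, and for 2 after saline.

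All 6 tested enzymes of the mevalonate and isoprenoid steps were in this set. Mvd, the decarboxylase that forms isopentenyl diphosphate, had the smallest p of all members. It read 6.27, 6.23 and 6.06 in the control ethanol pools and 6.75, 6.54 and 6.82 in the Fyn-null ethanol pools, a difference of 0.51 (standard error 0.12, 1.43-fold, adjusted p = 0.129, limma). The groups were apart, with the nearest pools at 6.27 and 6.54. Hmgcs1 makes the HMG-CoA from which mevalonate is formed. It read 11.22, 10.83 and 10.88 in control ethanol and 11.38, 11.30 and 11.48 in Fyn-null ethanol pools, a difference of 0.41 (standard error 0.11, adjusted p = 0.165, limma). Control ethanol replicate 1, at 11.22, lay close to the lowest Fyn-null pool. Idi1, which interconverts the isoprene units, read 8.27, 8.14 and 8.24 against 8.85, 8.55 and 8.78, a difference of 0.51 (standard error 0.14, adjusted p = 0.174, limma). Fdps, which joins these units to farnesyl diphosphate, differed by 0.36 (adjusted p = 0.189, limma). The kinases Pmvk and Mvk, which phosphorylate mevalonate in turn, differed by 0.31 and 0.22 (adjusted p = 0.236 and 0.243, limma).

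Of the 11 enzymes from squalene to cholesterol, 10 had groups apart. Cyp51, which removes a methyl group from lanosterol, read 7.62, 7.67 and 7.71 in control ethanol and 8.26, 8.01 and 8.24 in Fyn-null ethanol pools, a difference of 0.50 (standard error 0.14, adjusted p = 0.168, limma). Its control ethanol pools lay close together, and the lowest Fyn-null pool was replicate 2, as in Mvd, Hmgcs1 and Idi1. Lss, which closes squalene epoxide into lanosterol, had the greatest difference of all members. It read 6.95, 6.80 and 6.86 against 7.57, 7.26 and 7.41, a difference of 0.54 (standard error 0.15, adjusted p = 0.175, limma). Fdft1, the squalene synthase at the branch to sterols, differed by 0.36, and Sqle, the squalene epoxidase, by 0.29. The sterol reductase Tm7sf2 and the 3-ketosteroid reductase Hsd17b7 differed by 0.43 and 0.47, and the adjusted p-values of these 4 genes were 0.178, 0.264, 0.189 and 0.185 (limma). Msmo1 and Nsdhl, which act together in taking methyl groups off the ring, differed by 0.33 and 0.27, and Ebp, a sterol isomerase, by 0.26. Sc5d, the desaturase that follows Ebp, differed by 0.41 with a wide interval of -0.12 to 0.94. Dhcr7, which catalyses the reduction to cholesterol, stood apart from the others at -0.07, with a 95% interval of -0.30 to 0.15.

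Centring each gene on its mean over the 12 pools and averaging the 17 enzymes gave one value per pool. Control ethanol replicates 1, 2 and 4 were at -0.07, -0.19 and -0.11, and the Fyn-null ethanol pools at 0.29, 0.12 and 0.29. Control saline replicates 1, 2 and 3 were at -0.21, 0.04 and -0.13, and Fyn-null saline replicates 2, 3 and 4 at 0.04, 0.05 and -0.11. The 3 highest of the 12 pools were the Fyn-null ethanol pools. Among the saline pools, the pool labelled control saline replicate 2 stood level with Fyn-null saline replicates 2 and 3. Replicate 4 of Fyn-null saline stood with the other control pools, the same split as in the brighter Fyn probe set. The 11 enzymes from squalene on showed it, at -0.25, 0.06 and -0.18 in control and 0.07, 0.05 and -0.18 in Fyn-null saline pools. The 6 of the mevalonate and isoprenoid steps were at -0.14, 0.01 and -0.04 against -0.01, 0.05 and 0.03. There Fyn-null saline replicate 4 stood with its own group. For the mean over 17 enzymes, the SD between pools of a group, pooled over groups, was 0.098.

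**Figure D2:**
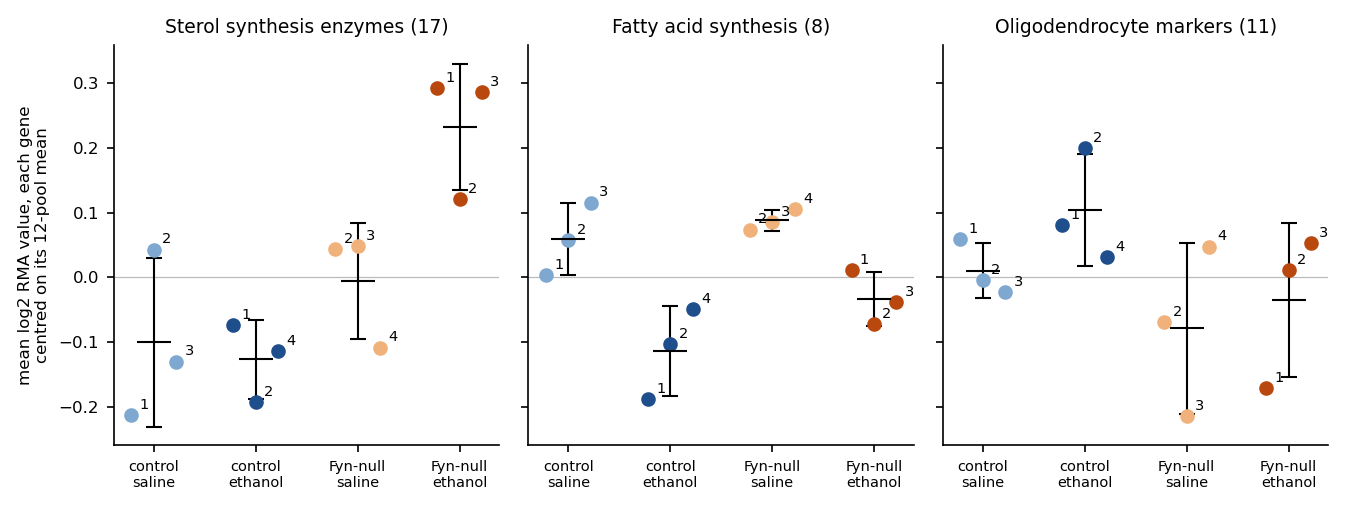
Mean signal per pool of the sterol synthesis enzymes (left), the fatty acid genes (middle) and oligodendrocyte markers (right), on a log2 scale with each gene centred on its mean over 12 pools. Each point is a pool, numbered by replicate, and bars give mean ± SD of 3 pools per group on the x axis; the Fyn-null ethanol pools, at 0.12 to 0.29, lie above all other pools in the left panel only.

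The other roles showed less of this pattern. The 5 sterol sensing genes had a median difference of 0.083 after ethanol and none had groups apart. Srebf2 differed by 0.17 and Insig1 by 0.14, while Srebf1, Insig2 and Scap lay between -0.01 and 0.08. The 5 transport and removal genes had a median of 0.079, with Apoe at 0.16 and the cholesterol exporter Abca1 at -0.11. Between them were its partner exporter Abcg1 (0.06), the intracellular sterol carrier Stard4 (0.08) and Cyp46a1 (0.09), which makes the oxysterol by which neurons export cholesterol. The 8 fatty acid genes had a median of 0.073. Their groups were apart in Acaca, which makes malonyl-CoA, and in the desaturases Scd1 and Scd2, with differences of 0.16, 0.16 and 0.11. That is 3 of 8 genes beside the 16.0% of all genes given above.

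Probe sets did not all show the same size. Of the 31 tested probe sets of the 17 enzymes, 27 were above 0 after ethanol, with a median of 0.29. The second probe sets of Idi1, Mvd and Cyp51 differed by 0.69, 0.43 and 0.65, close to or above those that stood for the genes. The second of Lss was at 0.07, those of Hsd17b7 at -0.15 and 0.02, and those of Fdft1 at 0.14 and -0.19. Hmgcs1 had others at 0.11, 0.19 and 0.29. Those of Sc5d were at 0.23 and -0.18, and the second of Mvk was at 0.04. The size of the difference therefore rested on the probe set for Lss, Hsd17b7, Fdft1, Sc5d and Mvk, among others.

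Markers of cell types were set beside this difference, with 63.0% of all genes above 0. Of 11 tested oligodendrocyte markers, 1 was above 0 after ethanol (median -0.12), and their mean signal was 7.82 to 7.98 in control and 7.61 to 7.84 in Fyn-null pools. Of 10 astrocyte markers, 8 were above 0 (median 0.11), with means of 9.50 to 9.72 and 9.58 to 9.77. Of 7 microglia markers, 5 were above 0 (median 0.22), with means of 7.49 to 7.61 and 7.59 to 7.77, and all 5 endothelial markers were above 0 (median 0.19), with means of 6.71 to 6.87 and 6.89 to 7.03. Of 10 neuron markers, 4 were above 0 (median -0.03), with means of 10.98 to 11.02 and 10.79 to 10.84. The 4 tested precursor markers had a median of 0.04. An unadjusted p under 0.05 with Fyn-null higher held for 4 microglia, 2 endothelial, 1 astrocyte and 1 precursor marker (10.1% of all genes). With Fyn-null lower it held for 4 neuron, 2 oligodendrocyte and 1 astrocyte marker, beside 341 of 12323 genes. Groups were apart with Fyn-null lower for 4 neuron, 4 oligodendrocyte, 1 astrocyte and 1 microglia marker, beside 609 of 12323 genes. They were apart with Fyn-null higher for 3 astrocyte, 3 microglia, 2 endothelial, 1 precursor and 1 neuron marker, beside 16.0% of genes. None of these markers was called (0% of all genes were), and their part in the difference of the enzymes was not tested.

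The promoters of the 4 enzymes with the smallest p after ethanol are shown because these genes lay higher together. They run from 250 bases before to 50 after the start of a RefSeq transcript (GRCm38.p6), 5′ to 3′, and capitals mark matches on either strand to CCAAT (the CCAAT box), GGGCGG (the GC box) or TCACNCCAC (the sterol regulatory element type, bound by SREBPs). The windows lie at chr8:122443373-122443672, minus strand for Mvd, chr13:119690101-119690400, plus strand for Hmgcs1, chr5:4104648-4104947, minus strand for Cyp51 and chr13:8885356-8885655, plus strand for Idi1.
Mvd: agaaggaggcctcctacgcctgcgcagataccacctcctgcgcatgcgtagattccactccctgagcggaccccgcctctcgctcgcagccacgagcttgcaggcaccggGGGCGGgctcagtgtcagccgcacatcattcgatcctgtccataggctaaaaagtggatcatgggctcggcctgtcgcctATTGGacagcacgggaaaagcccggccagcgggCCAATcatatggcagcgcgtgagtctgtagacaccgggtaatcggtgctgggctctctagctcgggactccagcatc
Hmgcs1: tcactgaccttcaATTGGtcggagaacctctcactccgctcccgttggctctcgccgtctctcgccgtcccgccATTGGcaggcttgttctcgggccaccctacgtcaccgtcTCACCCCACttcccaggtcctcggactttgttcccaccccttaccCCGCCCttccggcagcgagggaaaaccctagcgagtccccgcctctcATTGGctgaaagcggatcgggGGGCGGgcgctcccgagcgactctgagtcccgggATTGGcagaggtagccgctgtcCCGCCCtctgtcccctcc
Cyp51: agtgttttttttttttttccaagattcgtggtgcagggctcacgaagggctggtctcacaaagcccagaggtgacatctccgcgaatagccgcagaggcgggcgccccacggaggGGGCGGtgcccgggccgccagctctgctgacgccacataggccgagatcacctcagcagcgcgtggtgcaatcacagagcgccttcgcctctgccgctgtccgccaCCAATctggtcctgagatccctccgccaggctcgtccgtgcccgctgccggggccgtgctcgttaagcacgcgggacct
Idi1: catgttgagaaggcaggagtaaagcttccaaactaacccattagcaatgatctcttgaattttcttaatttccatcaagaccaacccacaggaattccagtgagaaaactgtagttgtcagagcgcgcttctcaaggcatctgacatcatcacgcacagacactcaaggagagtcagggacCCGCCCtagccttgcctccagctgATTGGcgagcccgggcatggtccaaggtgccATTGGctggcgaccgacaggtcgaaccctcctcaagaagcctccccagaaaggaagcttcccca

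Promoter windows were listed for 14 of the 17 tested enzymes. All 14 held a CCAAT box and 13 a GC box. Of all 27025 genes with a listed window, tested here or not, 41.1% held a CCAAT box and 38.2% a GC box. No share was counted over the 12323 tested genes alone. Among the other tested members, 7 of 13 with a window held a CCAAT box and 9 a GC box. The sterol regulatory element type was found in Hmgcs1 and in no other tested member with a window (14 enzymes and 13 others were searched). Of the 27025 genes, 1.44% held it. Sqle, Fdps and Fdft1 were the tested enzymes with no window listed. A gene with several windows counted if any of them held the motif, and the motifs were searched separately, so matches may overlap. A match is a description of the letters, and a missing match says only that these letters are not in this window.

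The same comparison after saline gave smaller differences. Of the 17 enzymes, 14 were above 0, with a median of 0.072 beside 0.007 over all genes. None was called, nor was any other gene (0%), and no enzyme had an unadjusted p under 0.05 with Fyn-null higher (0.933% of all genes). Fdft1 had groups apart, at 9.56, 9.81 and 9.76 in control and 9.88, 9.89 and 9.90 in Fyn-null saline pools, a difference of 0.18 (standard error 0.10, adjusted p = 1.00, limma). That is 1 of 17 enzymes, and Srebf2 was the only other member with groups apart, beside 3.27% of all genes. Hmgcs1, Tm7sf2 and Idi1 differed by 0.16, 0.16 and 0.17. Idi1 shows how the 2 doubted pools bear on these values. It read 8.40, 8.61 and 8.42 in control saline replicates 1, 2 and 3 and 8.84, 8.82 and 8.25 in Fyn-null saline replicates 2, 3 and 4. Fyn-null saline replicate 4 was the lowest saline pool here. Control saline replicate 2 lay between the other control pools and Fyn-null saline replicates 2 and 3. Cyp51 read 7.65, 8.03 and 7.79 against 8.17, 8.13 and 7.65, and Lss 6.84, 7.29 and 6.96 against 7.36, 7.18 and 6.74. Both showed the split of the brighter Fyn probe set. Mvd did not follow it, at 6.18, 6.31 and 6.45 against 6.12, 6.43 and 6.48. Nor did Fdft1, in which Fyn-null saline replicate 4 was the highest saline pool. In Hmgcs1 that pool lay between the other Fyn-null saline pools.

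Without both doubted pools, the median over the 17 enzymes after saline was 0.20, with 13 above 0, and none was called (0.0568% of all genes were). The smallest adjusted p was that of Sc5d, with a difference of 0.75 (adjusted p = 0.207, limma). Cyp51 differed by 0.43 and Idi1 by 0.42, whereas Mvd was at -0.04. The differences after ethanol keep their values when these saline pools are left out, and only the estimate of the spread changes. Then 4 enzymes were called between the ethanol groups, beside 0.795% of all genes, namely Cyp51 (adjusted p = 0.029), Idi1 (0.030), Tm7sf2 (0.031) and Lss (0.032, all limma). Leaving out pools because they stood with the other genotype by itself lowers the spread within groups and can raise the difference after saline. These calls are thus no independent evidence.

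**Figure D3:**
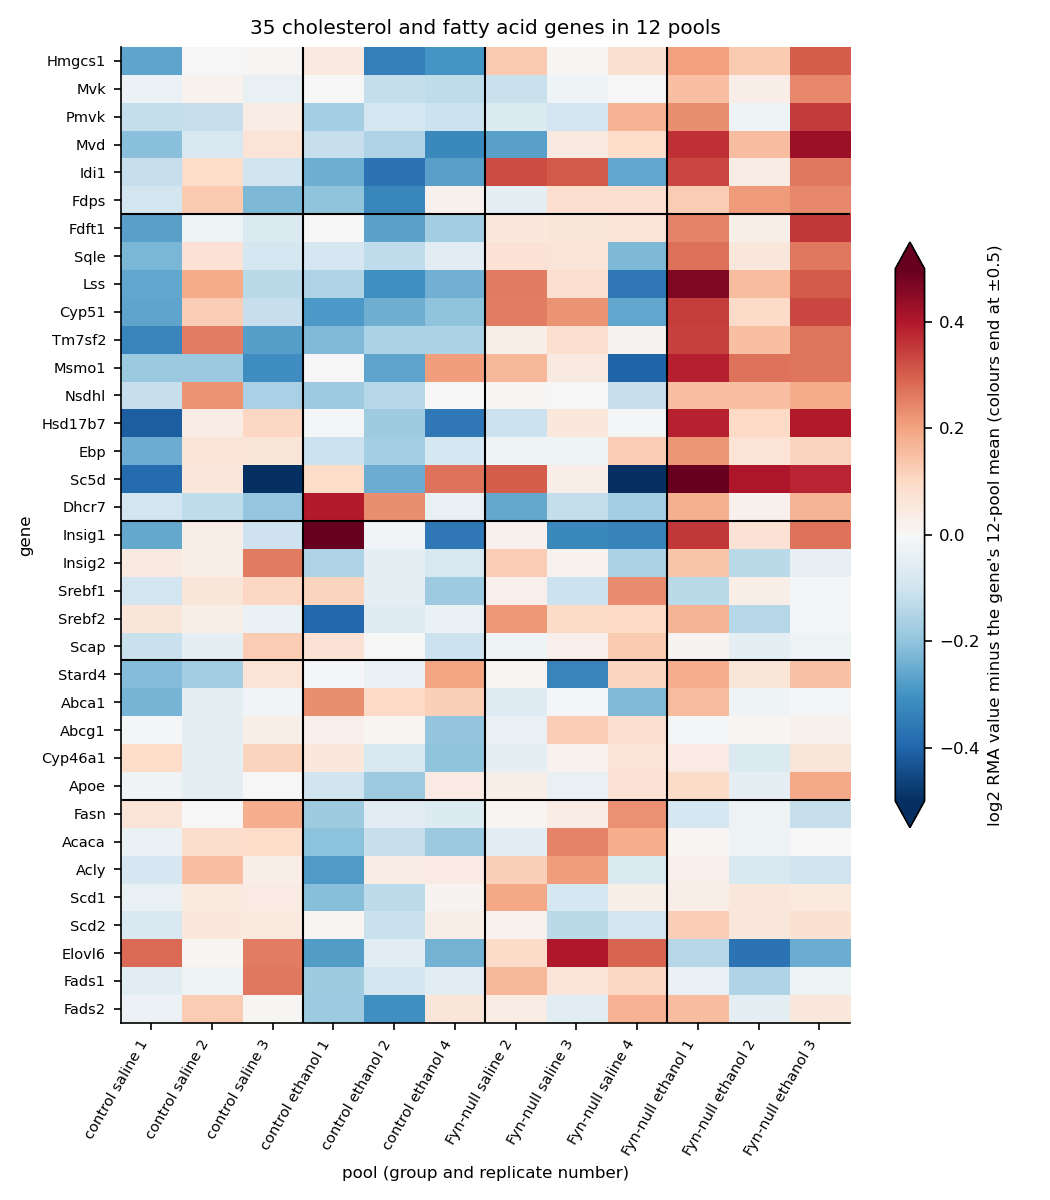
Signal of the 35 tested genes (rows, in the order of their roles) in the 12 pools (columns), as log2 RMA value minus the mean of the gene over all pools. Red is above and blue below the mean, lines part roles and groups, and colours end at ±0.5; the sterol synthesis enzymes, in the upper 2 blocks, are mostly red in the Fyn-null ethanol pools, and Elovl6 is red or pale in the saline and blue in the ethanol pools.

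Over both treatments, 6 Fyn-null against 6 control pools, 16 of 17 enzymes were above 0 with a median of 0.27, beside 0.027 over all genes. An unadjusted p under 0.05 with Fyn-null higher was found for 12 enzymes, beside 7.35% of all genes, and 0 of 35 members were called (0% of all genes). Fdft1 had the smallest p, with a difference of 0.27 (standard error 0.074, adjusted p = 0.321, limma). In the ethanol groups it read 9.83, 9.56 and 9.66 against 10.08, 9.86 and 10.18, and with the saline values above its 6 Fyn-null pools all lay over its 6 control pools. No other member had such a split, which 0.276% of all genes showed. The other tested probe sets of Fdft1 were at 0.075 and -0.23 over both treatments, and the mean of all its probe sets was at -0.025 after saline. Hmgcs1 read 10.91, 11.18 and 11.18 in control saline and 11.30, 11.18 and 11.25 in Fyn-null saline pools and differed by 0.28 over both treatments (adjusted p = 0.334, limma). Cyp51 and Idi1 differed by 0.33 and 0.34 (adjusted p = 0.336 for both, limma). Without both doubted pools 5 enzymes were called, Cyp51 (0.47), Idi1 (0.47), Tm7sf2 (0.40), Lss (0.47) and Sc5d (0.54), beside 2.11% of all genes. Leaving out these pools by itself lowers the spread and can raise the difference, so these calls too are no independent evidence. Other tested probe sets of Sc5d were at 0.16 and -0.13 over both treatments with all pools.

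Most enzymes moved together across pools. Over the 12 pools, the correlation of 2 enzymes had a median of 0.63, and 131 of 136 pairs were above 0. After the group means were taken out the median was 0.29, and 106 pairs were above 0, with a range of -0.58 to 0.98. Among the 8 fatty acid genes, 23 of 28 pairs were above 0 over the 12 pools, and 20 after the group means were taken out. These are descriptions, since all genes of a pool share its RNA and array. Sqle followed the mean of the other enzymes most closely (r = 0.95), then Lss (0.91), Fdft1 (0.89), Cyp51 (0.88) and Tm7sf2 (0.88). Dhcr7 followed it least among the enzymes (0.13). These values include the differences between groups. With group means taken out they were 0.94 for Sqle, 0.86 for Lss and 0.12 for Dhcr7, but 0.05 for Mvd and -0.07 for Pmvk. Of the other members, with group means kept in, Scd2 (0.64) and Apoe (0.60) came closest to the enzymes. Srebf2 was at 0.23 and Srebf1 at -0.16, and Fasn (-0.42) and Elovl6 (-0.41) ran opposite. Once group means were taken out, Abca1 was at 0.73, Scd2 at 0.59, Apoe at 0.21, Elovl6 at -0.34 and Fasn at -0.73.

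The response to ethanol within each genotype was the second question of the design. In control mice the median over 17 enzymes was -0.081, beside -0.060 over all genes, and 3 enzymes were above 0. Without both doubted pools the median was -0.026 with 7 above 0, leaving out 1 pool gave -0.14 to -0.026, and the 3′ to 5′ signal as a covariate gave 0.045 with 9 above 0. No member was called, beside 1.45% of all genes, and 2 of 35 members had an unadjusted p under 0.05 with ethanol higher, beside 3.77%. The 4 members with the smallest p were the fatty acid elongase Elovl6 (-0.37, adjusted p = 0.102), Dhcr7 (0.34, adjusted p = 0.120), Abca1 (0.25, adjusted p = 0.173) and Acaca (-0.22, adjusted p = 0.205, all limma). Groups were apart with ethanol lower for 6 of 35 members (Idi1, Insig2, Srebf2, Fasn, Acaca and Elovl6), a share near the 19.3% of all genes.

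In Fyn-null mice all 17 enzymes were above 0 after ethanol, with a median of 0.20 beside -0.021 over all genes. No member was called, beside 0.511% of all genes. An unadjusted p under 0.05 with ethanol higher was found for 6 enzymes, beside 4.69%, and groups were apart with ethanol higher for 9 enzymes, beside 7.13%. Mvd had 6.12, 6.43 and 6.48 in Fyn-null saline and 6.75, 6.54 and 6.82 in Fyn-null ethanol pools, a difference of 0.36 (standard error 0.12, adjusted p = 0.253, limma). Dhcr7 differed by 0.30 and Msmo1 by 0.37 (adjusted p = 0.279 and 0.339, limma). Elovl6 had the smallest p here too, at -0.52 (adjusted p = 0.066, limma). Without both doubted pools 16 of 17 were above 0 (Idi1 was at -0.11) and the median was 0.18. With arrays weighted by their quality, 7 members were called higher (Mvk, Pmvk, Mvd, Fdft1, Hsd17b7, Dhcr7 and Insig1) and Elovl6 lower, beside 10.8% of all genes. Under the same weights 17 members were called between the ethanol groups, beside 15.2% of all genes, of which 15 were sterol synthesis enzymes and the others Apoe and the desaturase Fads2.

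The difference between both responses, the interaction, was above 0 for 16 of 17 enzymes, with a median of 0.25 beside 0.040 over all genes. None was called (0% of all genes were), and 3 had an unadjusted p under 0.05 with the response of Fyn-null mice higher, beside 2.91% of all genes. These were Mvd at 0.48 (standard error 0.17), Mvk at 0.25 (0.11) and Lss at 0.48 (0.22), each with an adjusted p of 0.992 (limma), and Hsd17b7 followed at 0.40 (0.20). Without both doubted pools the median was 0.13, with Lss at 0.17 and Mvd at 0.56. A difference in response between genotypes was thus not shown for any enzyme.

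**Figure D4:**
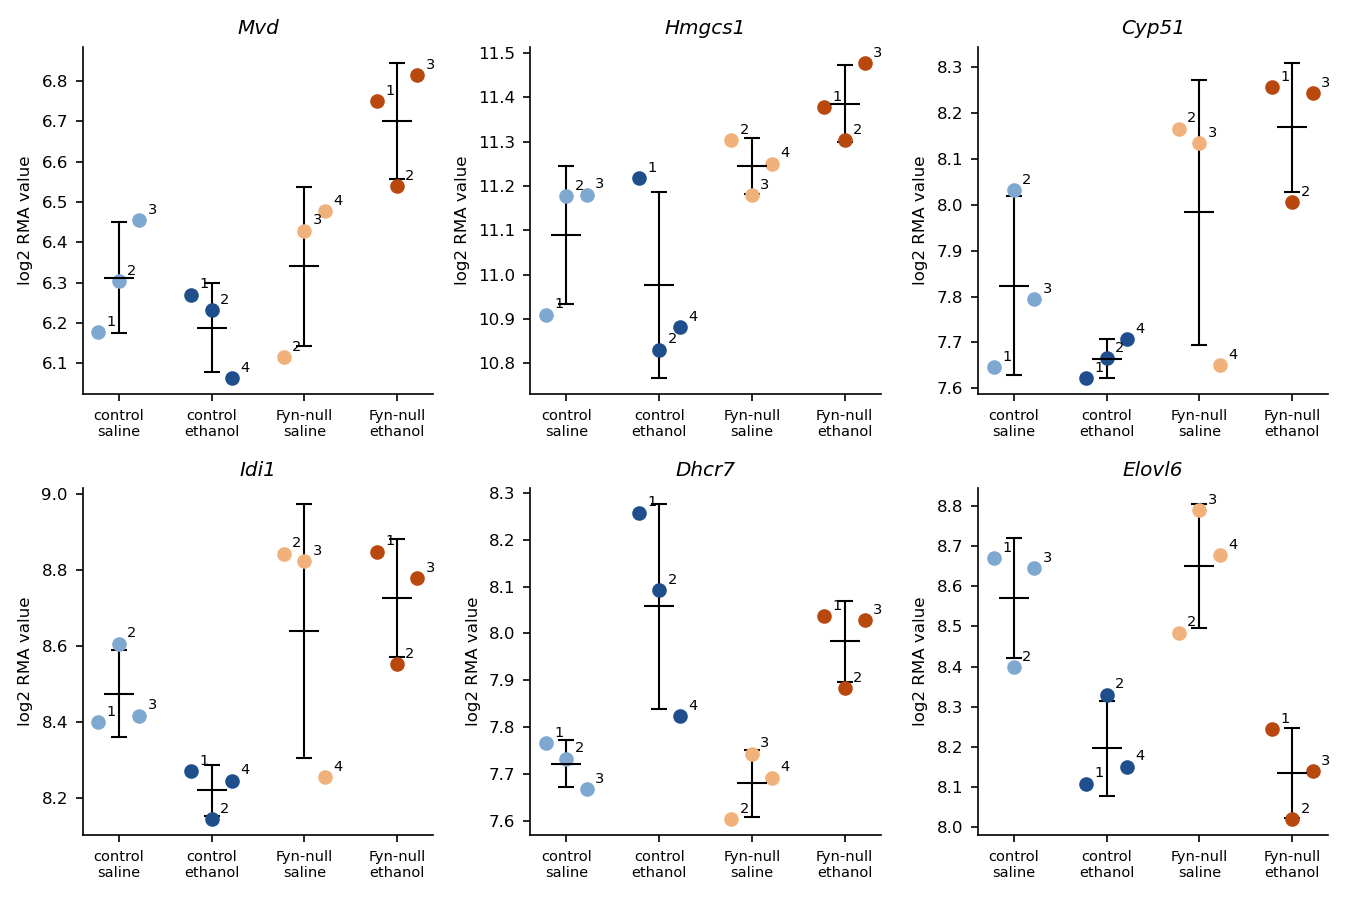
Log2 RMA signal (y axes, which start above 0 and differ between panels) of 4 enzymes with the smallest p between genotypes after ethanol, and of Dhcr7 and Elovl6, in the 3 pools of each group (x axis). Each point is a pool, numbered by replicate, and bars give mean ± SD; the Fyn-null ethanol pools lie above the control ethanol pools in the first 4 panels, and in Dhcr7 and Elovl6 the ethanol pools lie apart from the saline pools in both genotypes.

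Over both genotypes, 6 ethanol against 6 saline pools, 2 of 35 members were called, a share near the 6.69% of all genes. This comparison pools the saline groups of both genotypes, so an exchange of labels between them would leave the treatment groups the same. Elovl6, which lengthens palmitate to stearate, fell. It read 8.67, 8.40 and 8.64 in control saline, 8.48, 8.79 and 8.68 in Fyn-null saline, 8.11, 8.33 and 8.15 in control ethanol and 8.24, 8.02 and 8.14 in Fyn-null ethanol pools. All ethanol pools lay below all saline pools, with the nearest at 8.33 and 8.40. The difference was -0.45 (standard error 0.076, 0.734-fold, adjusted p = 0.0054, limma), and the gene's other probe sets were at -0.33 (adjusted p = 0.041) and -0.26. The former was at -0.32 without both doubted pools (adjusted p = 0.059, limma).

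Dhcr7 rose. It read 7.77, 7.73 and 7.67 in control saline, 7.60, 7.74 and 7.69 in Fyn-null saline, 8.26, 8.09 and 7.82 in control ethanol and 8.04, 7.88 and 8.03 in Fyn-null ethanol pools. All ethanol pools lay above all saline pools, with control ethanol replicate 4, at 7.82, the lowest of them. The difference was 0.32 (standard error 0.071, 1.25-fold, adjusted p = 0.020, limma). No other member was apart in this direction, beside 1.38% of all genes. Without both doubted pools Elovl6 was at -0.48 (adjusted p = 0.0084) and Dhcr7 at 0.33 (adjusted p = 0.048, limma), beside 5.32% of all genes called.

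The 3′ signal of Gapdh and Actb over their 5′ signal, a sign of RNA length, was mostly lower after ethanol. As the mean log2 difference of both genes it was 0.54, 0.65 and 0.99 in control saline and 0.76, 0.85 and 0.83 in Fyn-null saline pools. It was 0.40, 0.45 and 0.48 in control ethanol and 0.63, 0.39 and 0.43 in Fyn-null ethanol pools. With this value as a covariate, Elovl6 was at -0.32 (adjusted p = 0.474) and Dhcr7 at 0.28 (adjusted p = 0.526, limma). The second probe set of Elovl6 was then at -0.05 (adjusted p = 0.946, limma), and 22 genes of the whole table were called.

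The promoters of the called members are shown to set them beside those of the other enzymes. That of Elovl6 lies at chr3:129532136-129532435, plus strand, and the first of 3 windows of Dhcr7 at chr7:143822917-143823216, plus strand, with the same motifs in capitals.
Elovl6: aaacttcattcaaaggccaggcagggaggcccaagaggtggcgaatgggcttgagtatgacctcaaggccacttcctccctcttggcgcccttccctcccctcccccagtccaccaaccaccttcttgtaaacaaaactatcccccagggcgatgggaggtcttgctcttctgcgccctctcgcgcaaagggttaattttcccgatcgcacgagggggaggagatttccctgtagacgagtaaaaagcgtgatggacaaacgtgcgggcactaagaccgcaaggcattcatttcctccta
Dhcr7: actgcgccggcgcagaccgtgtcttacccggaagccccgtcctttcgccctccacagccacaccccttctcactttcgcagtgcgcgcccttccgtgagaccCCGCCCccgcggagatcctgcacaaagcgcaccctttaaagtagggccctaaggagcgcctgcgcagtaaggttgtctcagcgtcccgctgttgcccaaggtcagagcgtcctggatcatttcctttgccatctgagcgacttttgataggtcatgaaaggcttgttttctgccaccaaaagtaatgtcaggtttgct
The window of Elovl6 holds none of the 3 motifs. That of Dhcr7 holds 1 GC box, and a CCAAT box is found in another of its windows.

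By the probe sets that stood for them, the other fatty acid genes lay below 0 with 1 exception, whereas other probe sets of Scd1, Fads1, Fads2 and Acly lay above 0. The median over 8 genes was -0.15, beside -0.038 over all genes, and 4 had an unadjusted p under 0.05 with ethanol lower, beside 17.7% of all genes. Fasn, the fatty acid synthase, read 9.26, 9.19 and 9.37 in control saline and 9.20, 9.23 and 9.42 in Fyn-null saline pools. It read 9.01, 9.14 and 9.12 in control ethanol and 9.10, 9.17 and 9.08 in Fyn-null ethanol pools. Its ethanol pools all lay below its saline pools (-0.17, standard error 0.057, adjusted p = 0.080, limma), though 9.17 and 9.19 were close. With Elovl6 this makes 2 of 35 members apart with ethanol lower, beside 3.17% of all genes. Acaca was at -0.17 (adjusted p = 0.094) and the desaturase Fads1 at -0.17 (adjusted p = 0.108, limma). Acly, which provides acetyl-CoA from citrate, Fads2 and Scd1 were at -0.12, -0.09 and -0.06, and Scd2 at 0.06.

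Among sterol genes, 6 members in all had an unadjusted p under 0.05 with ethanol higher, beside 6.01% of all genes. Abca1 read 7.97, 8.16 and 8.19 in control saline and 8.14, 8.20 and 7.99 in Fyn-null saline pools, against 8.44, 8.31 and 8.33 in control ethanol and 8.37, 8.19 and 8.20 in Fyn-null ethanol pools. Its groups overlapped, and the difference was 0.20 (standard error 0.064, adjusted p = 0.080, limma). Sc5d was at 0.48 (adjusted p = 0.095), Msmo1 at 0.29 (adjusted p = 0.097), Insig1 at 0.32 (adjusted p = 0.185) and Stard4 at 0.18 (adjusted p = 0.197, all limma). The median over the 17 enzymes was 0.062. Srebf2 and Srebf1 were at -0.16 and -0.08.

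**Figure D5:**
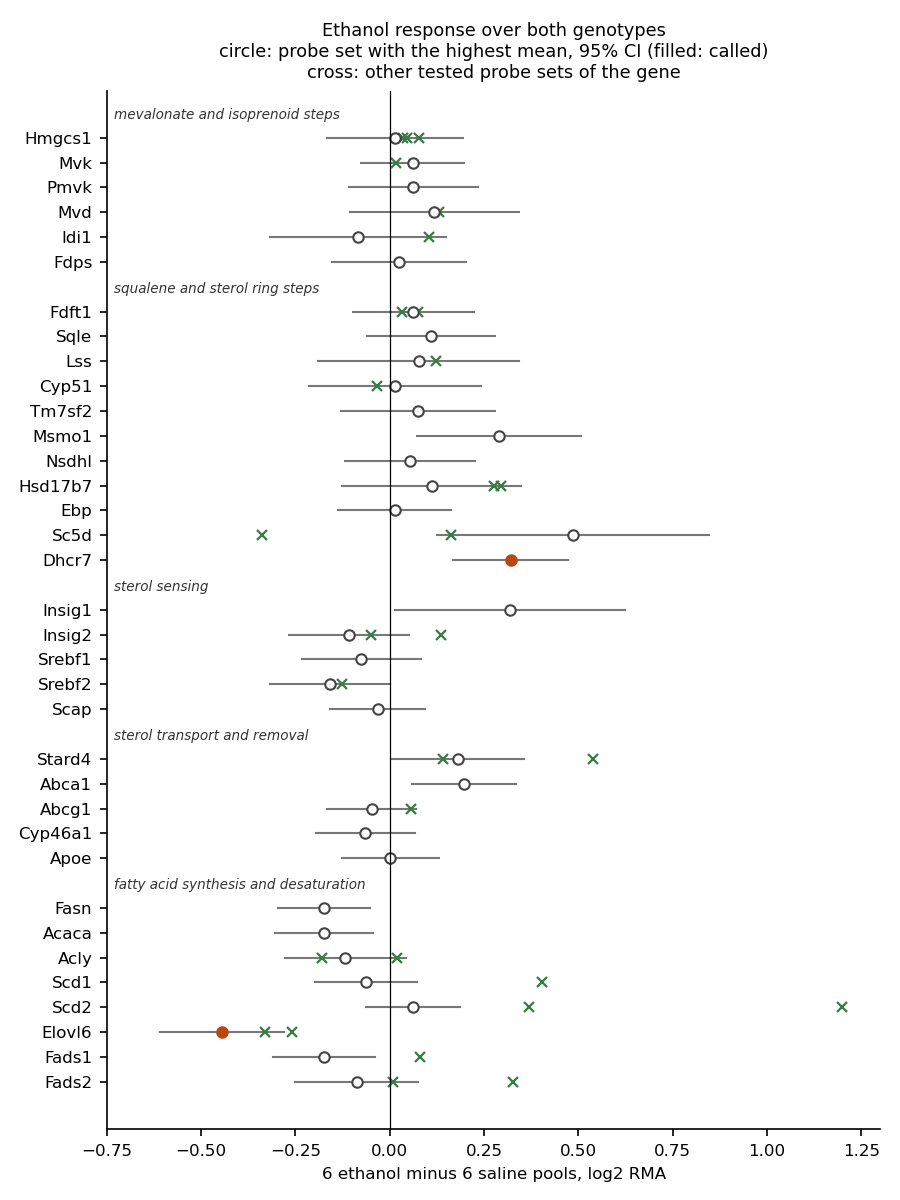
Difference between 6 ethanol and 6 saline pools over both genotypes (log2 RMA signal, x axis) for the 35 tested genes (y axis). Circles are the probe sets that stood for the genes, with 95% confidence intervals from limma (filled where called, Elovl6 and Dhcr7), and crosses are the other tested probe sets of a gene; the crosses of Scd2 and Sc5d lie farthest from their circles, followed by those of Scd1 and Fads2.

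Probe sets that did not stand for their gene gave 4 further calls among the 65 tested probe sets of members. Of all 24770 tested probe sets, 640 were called higher and 1046 lower in this comparison of ethanol with saline over both genotypes. In Sc5d, Stard4 and Scd2 the probe sets so called differed from the one that stood for the gene. In Scd2, the main stearoyl-CoA desaturase of brain, the dimmest of 3 probe sets read 7.67, 7.52 and 5.60 in control saline, 6.54, 5.96 and 6.69 in Fyn-null saline, 7.87, 7.83 and 8.31 in control ethanol and 7.50, 7.93 and 7.71 in Fyn-null ethanol pools. The saline pools spread over more than the ethanol pools. The difference was 1.20 (standard error 0.29, adjusted p = 0.029, limma), beside 0.37 and 0.06 in the brighter probe sets. With the 3′ to 5′ signal as a covariate it was -0.01 (adjusted p = 0.996), and without both doubted pools 1.42 (adjusted p = 0.026, limma). Stard4 had a probe set at 0.54 (adjusted p = 0.018, limma) beside 0.18 and 0.14. That probe set was at 0.25 with the covariate (adjusted p = 0.756) and 0.56 without both doubted pools (adjusted p = 0.029, limma). Sc5d had one at -0.34 (adjusted p = 0.024, limma), opposite in sign to the 0.48 and 0.16 of the others. This was -0.27 with the covariate (adjusted p = 0.599) and -0.34 without both doubted pools (adjusted p = 0.058, limma). Of 19 members with several tested probe sets, 9 had one on the other side of 0 from that which stood for the gene. These were Sc5d and, with no such probe set called, Idi1, Cyp51, Insig2, Abcg1, Acly, Scd1, Fads1 and Fads2. Those of Scd1, Fads2, Fads1 and Insig2 were at 0.40 for Scd1 (against -0.06), 0.33 and 0.01 for Fads2 (against -0.09), 0.08 for Fads1 (against -0.17) and 0.13 for Insig2 (against -0.11).

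Of 70 further genes of lipid supply and use, 64 were tested. Over both genotypes 9 of them were called, 5 higher and 4 lower, beside 6.69% of all genes. Pnpla2, the lipase that starts the breakdown of stored triglyceride, rose by 0.50 (adjusted p = 0.0012), Thrsp, a gene tied to lipogenesis, by 0.48 (adjusted p = 0.0043), and Scarb1, a lipoprotein receptor, by 0.27 (adjusted p = 0.017, all limma). Lpin1 and Dgat2, both in triglyceride synthesis, rose by 0.37 and 0.26 (adjusted p = 0.021 and 0.030), and the sterol-binding protein Osbp fell by 0.23 on the log2 scale (adjusted p = 0.024, limma). The others called lower, named after their values were seen, were Hacd1 (-0.35), Mid1ip1 (-0.25) and Lrp1 (-0.22). Pnpla2 was called in each genotype as well, at 0.43 in control and 0.56 in Fyn-null mice (adjusted p = 0.045 and 0.024), and Thrsp in Fyn-null mice at 0.61 (adjusted p = 0.026, limma). Between genotypes none of the 64 was called. After ethanol, Thrsp (0.41, adjusted p = 0.149) and Elovl1 (0.40, adjusted p = 0.194, limma) had the smallest p, and after saline Me1 (-0.28) and Cyp27a1 (-0.14). Over both treatments these were Me1 (-0.32) and Thrsp (0.28), and for the interaction Pparg (0.31) and Cyp7b1 (0.36).

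Cell markers moved with ethanol as well. Of 5 endothelial markers 4 were called lower (Cldn5, Flt1, Slco1a4 and Cdh5), with a median of -0.41, beside 6.69% of all genes called. Their mean signal was 7.13 to 7.44 in saline and 6.71 to 7.03 in ethanol pools. Among oligodendrocyte markers Mal was called at 0.53 and the other 10 were not, and among microglia markers Aif1 was called at -0.44. Of 4 tested markers of cortical layers, Tle4 was called at -0.29 and Bcl11b at 0.19. None of the 10 astrocyte and 10 general neuron markers was called. Their part in the changes of Elovl6 and Dhcr7 was not tested.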

How the data were processed

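Affymetrix arrays (12, 4 groups of 3 pools) were analysed from the deposited table of log2 values per probe set, which the authors had made with RMA in the affy package, per the submitters' processing notes. The sources used here give no versions and do not say whether the batch step of the Methods was applied. S-scores need probe intensities and were not computed. After removal of 64 control probe sets and of the dimmest 45% of the rest, by their mean, 24770 were tested. The platform annotation gave 34958 of 45101 probe sets 1 symbol, 932 several and 9211 none, and 34754 matched RefSeq by gene ID. Some genes are not reported here.

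Means of the 4 groups, and genotype and treatment as additive terms, were estimated by lmFit and eBayes (limma 3.58.1, R 4.3.3), with Benjamini-Hochberg adjustment and calls at an adjusted p under 0.05. Scripts were tested on simulated data. Members and lists were chosen with earlier results of these data known. Every member was named, and each comparison gives its called members or those with the smallest p until 4 were named. Pool values of Mvd and Lss, and Scd2, Stard4 and Sc5d by probe set, were added after values were seen. Replicate numbers do not pair the samples. Residuals of same-numbered arrays correlated at -0.43 to 0.32, and 3 of 13 such correlations exceeded 0.1. Alternatives were other filters, quantile normalization, the replicate block, trend and robust eBayes, array weights, a fit of the groups compared, the mean of all probe sets, the 3′ to 5′ signal as covariate, and leaving out each pool or both doubted ones. The number of pools limits the precision.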

Additional observations from a re-analysis of the deposited data

How the results depend on the processing

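The median over the enzymes kept its sign in every comparison under all alternatives but one. It lay between 0.29 and 0.44 after ethanol and was 0.045 for the response of control mice with the 3′ to 5′ signal as a covariate. It was 0.20 after saline without both doubted pools (0.043 to 0.19 leaving out 1 pool), 0.13 for the interaction without both, and 0.17 over both treatments with the mean of all probe sets, where Fdft1 after saline turned to -0.025. For array weights, both doubted pools left out and the covariate, the genes called in the whole table are given above. For the other settings no such share is given here, so their counts cannot be read against it. Counts of called members changed as follows. Higher in control mice, 1 without control ethanol replicate 4 (Dhcr7, 0.45, adjusted p = 0.041, limma) and 0 without any other pool. In Fyn-null mice, 1 lower with further quantile normalization and with trend and robust eBayes (Elovl6), and 7 higher and 1 lower with array weights. After ethanol, 17 higher with array weights and 4 without both pools. Over both genotypes, higher, 2 with quantile normalization, 3 with the mean of all probe sets, 0 with the replicate block (Dhcr7 at 0.30, adjusted p = 0.05003), 0 with the covariate, and 1 to 2 leaving out a pool (2 without control saline replicate 2). Lower, 0 with the covariate and 1 to 2 leaving out a pool (2 without Fyn-null saline replicate 2). Genotype over both treatments, 5 higher without both pools and 0 to 1 leaving out a pool (1 without control saline replicate 2 or without Fyn-null saline replicate 4, there Idi1 at 0.44). The replicate block changed no other count; its enzyme medians were 0.37 after ethanol and 0.10 after saline. With 3 pools a group, the median standard error of a difference was 0.11. Other causes of these changes were not tested.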
